A study of Mus musculus with 6 samples.

Results

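The genes described here are the mouse zinc finger genes that carry the symbol Zfp followed by a number, are annotated as protein-coding and were well counted. They were chosen by name and by a mean of at least 50 raw counts over the 6 libraries. The choice gave 219 of the 364 protein-coding Zfp genes in the deposited table, which lists 54532 genes in all. Zfp36 was set aside, because its product, tristetraprolin, is a CCCH protein that binds mRNA. The 145 Zfp genes under the mean included 37 without a single count. The mean count therefore set which genes were seen, and their levels are given as a description. Just inside the limit lay Zfp9, Zfp931 and Zfp810, with means of 50, 50.3 and 51.8 counts. Just outside it lay Zfp69, Zfp524 and Zfp975, with 49.5, 48.2 and 47.7 counts.

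The samples were N9 microglia, an immortalized line grown from mouse brain. Bacterial lipopolysaccharide (LPS), a ligand of Toll-like receptor 4, was given at 1 µg/ml for 6 h in 3 libraries, and 3 control libraries came from cells without it. All 6 libraries are of the same line, and the labels do not say whether the replicates were separate cultures. The p-values thus weigh the difference between groups against the spread between these libraries, which may be technical. For each gene that spread was estimated with help from the other genes tested. The question the comparison addresses is which transcripts differ between stimulated and unstimulated microglia.

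Zinc fingers of the C2H2 type are short modules in which a pair of cysteines and a pair of histidines hold a zinc ion. Arrays of them read DNA, and some bind RNA or protein instead. Many of these proteins also carry a KRAB box, which recruits the co-repressor Trim28 (KAP1), the histone methyltransferase Setdb1 and heterochromatin proteins to silence retroelements and imprinted loci. KRAB zinc finger genes sit in tandem clusters and are usually transcribed at low levels. In microglia, LPS is best known for its action on cytokine and interferon genes through NF-κB and interferon regulatory factors.

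Total counts were between 16363767 and 17956772 per library. Of 15 microglia and macrophage markers, 10 had a mean of at least 10 counts, Csf1r, Cd68, Ptprc and Spi1 among them, while Aif1, C1qa, C1qb, P2ry12 and Sall1 lay below. Counts of 8 hepatocyte markers, albumin among them, summed to 243 and 431 in control replicates 2 and 3, against 7 in control replicate 1 and 2 to 12 in the LPS libraries. The main counts are given with and without those control libraries. Summed marker counts also moved with the groups for astrocytes (493 to 555 in the controls and 353 to 414 with LPS), oligodendrocytes (620 to 682 and 459 to 473) and endothelium (5 to 16 and 26 to 38). The first sum was mostly Aldh1l1, while Gfap had 1 to 3 counts in the controls and 0 to 10 with LPS, and the second was mostly Mbp, with Olig2 at 0. Endothelial Cldn5 was at 0. Kdr had 2 to 8 counts in the controls and 13 to 21 with LPS (edgeR adjusted p = 0.00355). Cdh5 had 2 to 5 and 9 to 13 counts, and Pecam1 1 to 3 and 3 to 6. The 5 neuron markers summed to 453 to 517 counts and 455 to 531, with Tubb3 3.18-fold higher and Map2 lower, at edgeR adjusted p-values of 7.3e-07 and 0.00221. The part of these markers in the results was not tested.

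The finger that each of these proteins shows first in its coding sequence is printed here for the 7 genes that the account of falls and rises turns on, so that the module behind the family name can be seen. The capitals mark the codons of the 2 cysteines and the 2 histidines, and the sequences are coding strand of GENCODE M21 transcripts, from the translated exons of genes at the mm10 positions given in the deposited table.
Zfp395: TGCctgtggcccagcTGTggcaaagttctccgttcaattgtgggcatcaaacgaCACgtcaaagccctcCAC
Zfp467: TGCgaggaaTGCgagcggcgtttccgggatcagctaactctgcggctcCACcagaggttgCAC
Zfp618: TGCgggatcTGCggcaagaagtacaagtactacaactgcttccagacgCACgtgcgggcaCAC
Zfp759: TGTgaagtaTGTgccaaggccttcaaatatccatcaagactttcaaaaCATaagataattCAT
Zfp275: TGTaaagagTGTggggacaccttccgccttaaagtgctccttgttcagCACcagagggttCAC
Zfp462: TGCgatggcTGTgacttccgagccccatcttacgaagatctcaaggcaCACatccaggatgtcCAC
Zfp945: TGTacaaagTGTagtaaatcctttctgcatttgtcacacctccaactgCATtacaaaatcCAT
Zfp395 lies at chr14:65358389-65398930, Zfp467 at chr6:48427697-48445825 and Zfp618 at chr4:62965573-63139708. Zfp759 lies at chr13:67121660-67141787, Zfp275 at chrX:73342621-73359080, Zfp462 at chr4:54945048-55083563 and Zfp945 at chr17:22846697-22867134. The single finger of Zfp395 spans 72 bases and the first finger of Zfp462 66, against 63 in the other 5 genes. The number of such matches was 1 in Zfp395, 4 in Zfp618, 11 in Zfp275, 12 in Zfp467, 18 in Zfp945, 19 in Zfp759 and 33 in Zfp462.

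Most Zfp genes stayed near their control level after LPS. With edgeR's quasi-likelihood test and Benjamini-Hochberg adjustment over all 12296 genes tested, 26 of the 219 were higher and 21 lower at an adjusted p under 0.05, and 172 did not pass. Over all genes tested, 18.7% were higher and 15.7% lower. Among the 9920 protein-coding genes with the same mean of at least 50 counts, 20.7% were higher and 18.2% lower. The shares in the Zfp genes were 11.9% and 9.59%, below both backgrounds in each direction, a description with no test. The Zfp genes were also less well counted, with a median mean of 184 counts beside 745 in those protein-coding genes. A p that misses the threshold does not show that a gene held its level, but the intervals were often narrow. In 168 of the 219 genes (76.7%) the 95% interval of the change lay within 1.5-fold in either direction, against 68.0% of all genes tested and 80.5% of the protein-coding genes with that mean.

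The median log2 fold change over the 219 genes was 0.0047, beside 0.0036 over all genes tested. The quartiles were -0.16 and 0.14, and 111 were above zero. In 74 genes the 3 LPS libraries and the 3 control libraries did not overlap, 33.8% of the list, where 45.3% of all genes tested and 49.7% of the well counted protein-coding genes did not. Of the 74, 40 were above and 34 below their controls. The study's thresholds ask for a log2 fold change beyond 1.5 in size besides an adjusted p under 0.05. By them, Zfp395 alone was a differentially expressed gene. It entered the list only through its control counts, with 19 or 20 counts in each LPS library. Those thresholds were met by 2.65% of all genes tested and 1.97% of the well counted protein-coding genes. Without control replicates 2 and 3, the Zfp genes gave 18 higher and 8 lower. Calls over all genes dropped in that fit as well, from 4221 of 12296 to 2832 of 12940.

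**Figure D1:**
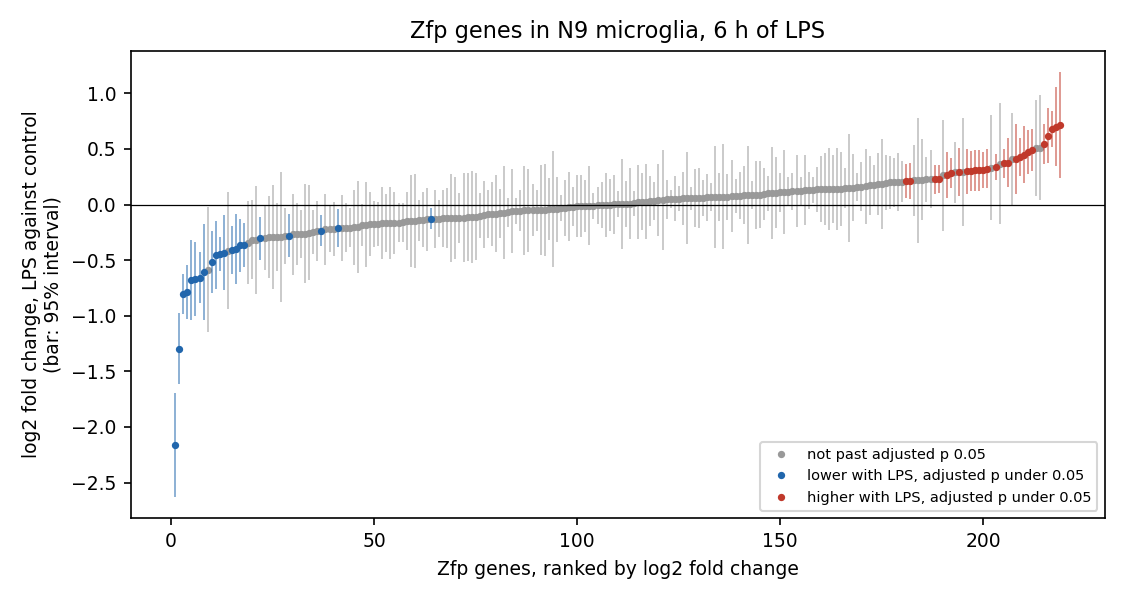
Log2 fold change of LPS against control for each of the 219 Zfp genes, ranked from the lowest to the highest, with bars for the 95% interval and colour for the edgeR call. The values run from -2.16 to 0.71, and the 172 grey genes fill most of the middle, with the 21 that fell towards the left and the 26 that rose towards the right.

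The largest fall was that of Zfp395, a transcription factor known for binding papillomavirus and Huntington gene control DNA. Its level, in CPM (counts scaled by TMM-adjusted library size), came to 5.66, 4.76 and 5.65 without LPS and to 1.204, 1.16 and 1.22 with it. All LPS libraries lay at about the same low level, well clear of the controls, with 19 or 20 raw counts each against 84 to 105. Its mean of 57.3 counts thus met the limit of 50 only through the control libraries. The mean fell from 5.36 ± 0.516 to 1.19 ± 0.031 CPM (SD, n = 3 libraries each). That is a 4.47-fold lower level, and the edgeR log2 fold change was -2.16 ± 0.22 (SE), with an adjusted p of 1.8e-06. Its relative Zfp704, a protein of the same small family, fell too, by 0.41 on the log2 scale (SE 0.10, edgeR adjusted p = 0.00597). The call for Zfp704 was lost without both control replicates 2 and 3. Zfp704 had 16.8, 19.1 and 18.1 CPM in the controls and 12.3, 13.8 and 14.6 CPM with LPS, and was chosen for mention after its value was seen.

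Zfp467, which is known to favour fat over bone cell fate in marrow stroma, came next. It had 10.97, 13.3 and 10.4 CPM in the control libraries and 4.18, 5.31 and 4.57 CPM in the LPS libraries. The groups were far apart, and the level was 2.46-fold lower with LPS (log2 fold change -1.30 ± 0.15 SE, edgeR adjusted p = 6.7e-06). Zfp618, a reader of 5-hydroxymethylcytosine that partners with Uhrf2, was much better counted. Its control libraries held 37.3, 36.3 and 35.7 CPM and its LPS libraries 20.3, 23.2 and 19.1 CPM, a 1.75-fold lower level with an edgeR adjusted p of 2.2e-06. The controls of Zfp618 sat within a narrow band, and the highest LPS library was clearly under it.

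Zfp608 fell from 13.1, 14.7 and 14.3 CPM in the controls to 8.11, 7.56 and 8.71 CPM with LPS (1.72-fold, edgeR adjusted p = 7.2e-05). Its relative Zfp609, which works with the cohesin loader Nipbl, went the other way, at 69.2, 76.6 and 73.4 CPM in the controls and 78.9, 91.5 and 86.7 CPM with LPS. The rise of Zfp609 was small (1.17-fold, edgeR adjusted p = 0.00819), its call held in 5 of the 6 fits that left out 1 library, and the gene was picked for this pairing after its value was seen. Zfp362 had 14.5, 15.02 and 15.2 CPM in the controls and 10.3, 8.78 and 9.26 CPM with LPS, 1.58-fold lower, with an edgeR adjusted p of 0.000215. Zfp384, a nuclear matrix factor that is the closest relative of Zfp362, is a contrast. It was at 54.5, 56.1 and 57.1 CPM in the controls and 55.3, 55.3 and 58.3 CPM with LPS, and its log2 fold change was 0.01, with a 95% interval from -0.11 to 0.12. The groups of Zfp384 overlapped.

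Zfp41 had 14.7, 13.6 and 11.6 CPM in the controls and 6.15, 9.51 and 9.26 CPM with LPS, and LPS replicate 1 was the lowest of its libraries. The groups did not overlap (1.59-fold lower, edgeR adjusted p = 0.0036). Zfp580 fell from 9.06 ± 1.41 to 6.63 ± 0.159 CPM (edgeR adjusted p = 0.0234). The call for Zfp580 was lost without LPS replicate 2, LPS replicate 3 or control replicate 2, at adjusted p-values of 0.0524, 0.0651 and 0.114. It was lost too with DESeq2 (0.0697) and without both control replicates 2 and 3 (0.439).

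Of the KRAB genes, Zfp759, Zfp667 and Zfp948 were among the 10 largest falls. Zfp759 stood at 5.25, 5.27 and 5.97 CPM in the controls and 3.17, 3.598 and 3.53 CPM with LPS, 1.60-fold lower with an edgeR adjusted p of 0.0059. Zfp948 stood at 15.4, 13.2 and 14.8 CPM and 11.4, 8.17 and 10.8 CPM, 1.43-fold lower with an edgeR adjusted p of 0.00604. In both genes every LPS library lay below every control, but Zfp759 lost its call without both control replicates 2 and 3 (adjusted p = 0.117). Zfp667 had 4.03, 5.33 and 4.304 CPM in the controls and 3.49, 2.56 and 2.92 CPM with LPS, with the groups close to each other (edgeR adjusted p = 0.0307). Its raw counts were 69, 94 and 80 in the controls and 55, 42 and 48 with LPS. Zfp667 thus met the limit on the mean count only through the control libraries. Its call held in 2 of the 6 fits that left out 1 library. It was lost without LPS replicate 2 or 3 (adjusted p = 0.116 and 0.0745) and without control replicate 2 or 3 (0.128 and 0.0565).

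**Figure D2:**
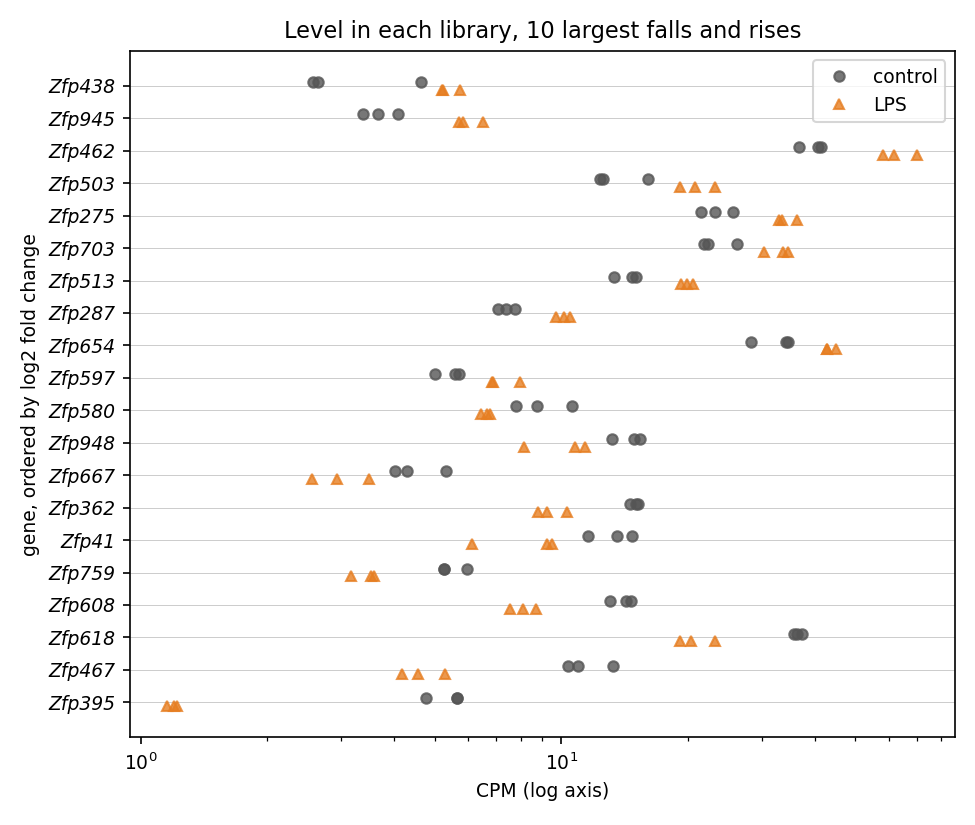
Level of the 10 Zfp genes with the largest falls and the 10 with the largest rises among those called, in CPM on a log axis, with 1 point for each of the 3 control and 3 LPS libraries. Non-overlap was part of the rule for this choice, so the separation of grey and orange points is a description, and the widest gap is that of Zfp395, at 1.16 to 1.22 CPM with LPS.

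The rises were smaller than the largest falls, and none reached a doubling. Zfp462, a very large protein that brings the histone methyltransferases G9a and GLP to chromatin, rose with the firmest evidence. It had 36.7, 41.4 and 40.7 CPM in the controls and 58.1, 70.1 and 61.8 CPM with LPS. The lowest LPS library stood well above the highest control, and the rise was 1.60-fold (log2 fold change 0.68 ± 0.075 SE, edgeR adjusted p = 4.4e-06). Zfp503 and Zfp703 are the NET family of co-repressors, whose single zinc finger is of an unusual form, and neither had a C2H2 match. Zfp503 was at 12.6, 12.4 and 16.1 CPM in the controls and 20.7, 23.2 and 19.2 CPM with LPS. Zfp703 was at 22.3, 21.9 and 26.1 CPM and 34.6, 33.6 and 30.4 CPM. Both relatives rose, Zfp503 by 1.54-fold and Zfp703 by 1.40-fold, with edgeR adjusted p-values of 0.000758 and 0.000528.

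Zfp945, a KRAB gene, had 3.39, 4.08 and 3.66 CPM in the controls and 6.53, 5.86 and 5.72 CPM with LPS. Its rise of 1.62-fold (edgeR adjusted p = 0.00401) was the largest among the KRAB genes that passed. Zfp275 had 21.4, 23.2 and 25.6 CPM and 32.9, 36.2 and 33.4 CPM, a rise of 1.46-fold with an edgeR adjusted p of 0.000127. Zfp654 had 28.3, 34.1 and 34.5 CPM and 44.9, 42.8 and 42.8 CPM, a rise of 1.34-fold with an edgeR adjusted p of 0.000631. In Zfp654 the LPS libraries nearly coincided, and control replicate 1 was the lowest. Zfp287, a protein with a SCAN domain, rose from 7.400 ± 0.352 to 10.1 ± 0.384 CPM (edgeR adjusted p = 0.00904).

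The called rise of greatest size, that of Zfp438, was less firm. Its controls were 2.57, 4.65 and 2.64 CPM and its LPS libraries 5.197, 5.73 and 5.24 CPM, so that control replicate 2 came close to the LPS libraries (edgeR log2 fold change 0.71 ± 0.22 SE, adjusted p = 0.0223). The call was lost without LPS replicate 2, control replicate 1 or control replicate 3, at adjusted p-values of 0.0804, 0.0828 and 0.108. Zfp597 had 5.02, 5.73 and 5.59 CPM in the controls and 6.84, 7.99 and 6.88 CPM with LPS (edgeR adjusted p = 0.0418). Its call was lost whichever library was left out, with adjusted p-values from 0.0526 without LPS replicate 1 to 0.152 without LPS replicate 2.

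Some of these genes overlap others on the opposite strand, and the strand setting of the counting is not given in the sources used here. Zfp513, in which variants cause retinal degeneration, had 13.3, 15.02 and 14.7 CPM in the controls and 20.5, 19.9 and 19.2 CPM with LPS (1.38-fold, edgeR adjusted p = 0.00109). It overlaps Snx17, which had a mean of 1441 counts and a log2 fold change of -0.02. Zfp597 overlaps Naa60, with a mean of 924.5 counts and a log2 fold change of -0.15. Zfp668, which fell by 0.37 on the log2 scale with a call that held in 3 of the 6 fits that left out 1 library, overlaps another gene of the list, Zfp646, with a log2 fold change of 0.06. Overlap here is of whole gene spans, introns included. If the counting used no strand, reads from a stretch that both genes share cannot be told apart. Among all 219 genes, 91 overlapped another annotated gene, 71 of them one on the other strand, and 16 shared at least 10% of their 75-base words with another gene. The 121 genes with neither gave 16 higher and 12 lower, beside 18.7% and 15.7% of all genes tested.

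The share of genes that changed went with how well they were counted. Among the 51 Zfp genes with a mean of 50 to 100 counts, 5 changed (9.80%), and among the 69 with 100 to 200 counts, 8 changed (11.6%). The protein-coding genes of the same bins changed in 19.6% and 26.6%. From 200 to 800 counts the shares ran close together, and above that they parted again. They were 30.8% of 39 Zfp genes against 31.6% of protein-coding genes at 200 to 400 counts, 35.9% of 39 against 37.1% at 400 to 800, and 38.1% of 21 against 47.0% from 800 upwards. The median standard error of the Zfp genes was 0.193 in the lowest bin and 0.056 in the highest, beside 0.195 and 0.0513 for the protein-coding genes. Precision was thus nearly the same within a bin. In the lowest bin the median absolute log2 fold change was 0.15 for the Zfp genes and 0.25 for the protein-coding genes, and from 200 counts upwards they differed by at most 0.02.

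**Figure D3:**
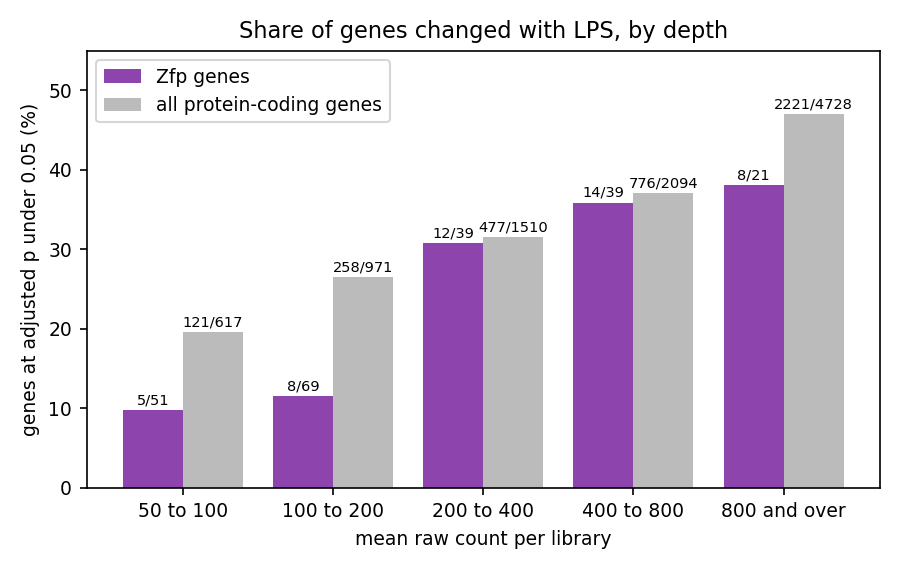
Share of genes at an edgeR adjusted p under 0.05, in percent, by the mean raw count per library, for the Zfp genes and for all protein-coding genes, with the counts of changed and all genes above each bar. Of the Zfp genes with 50 to 100 counts 9.80% changed, against 38.1% of those with 800 counts or more.

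A KRAB box was found in 108 of the 219 genes, by a match at 12 or more of 15 conserved positions in the translated coding sequence. Of these 108, 5 rose and 7 fell, and the other 96 did not pass. Of the 111 genes without a match, 21 rose and 14 fell. The changed share was 11.1% in the KRAB genes and 31.5% in the others, beside 34.3% of all genes tested and 38.8% of the well counted protein-coding genes. The median log2 fold change was -0.03 in the KRAB genes and 0.05 in the others, and the libraries did not overlap in 22 (20.4%) and 52 genes (46.8%), beside 45.3% of all genes tested. The groups differed in depth as well. KRAB genes had a median mean count of 126 and a median standard error of 0.149, and the others 369 and 0.0921. The part of depth in the difference of these counts was not tested. The KRAB genes that rose were Zfp945, Zfp777, Zfp52, Zfp568 and Zfp26, and those that fell were Zfp759, Zfp667, Zfp948, Zfp971, Zfp994, Zfp715 and Zfp317. Of these 12, Zfp945, Zfp568, Zfp759 and Zfp948 kept their call whichever single library was left out, and the others lost it in at least 1 such fit. Zfp971 shared 20.2% of its words with 2 predicted genes, and its value is uncertain for that reason. The KRAB counts moved with the fit. DESeq2 gave 2 higher and 3 lower, and edgeR gave 2 and 4 without LPS replicate 2, 3 and 4 without LPS replicate 3, 4 and 4 without control replicate 3, and 4 and 1 without both control replicates 2 and 3.

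Another 7 genes matched at 9 to 11 positions and stand among the 111. They were Zfp446, Zfp202, Zfp287, Zfp746, Zfp597, Zfp189 and Zfp37. Of them 4 changed, 57.1% of a small set, beside 34.3% of all genes tested. Zfp446, Zfp287 and Zfp597 rose, the last with the call that no fit leaving out 1 library kept, and Zfp746 (PARIS), a substrate of the ubiquitin ligase parkin, fell by 0.36 on the log2 scale (edgeR adjusted p = 0.00585). Zfp746 had 22.9, 25.6 and 22.1 CPM in the controls and 17.2, 18.8 and 18.9 CPM with LPS. The calls for Zfp446, Zfp287, Zfp597 and Zfp746 were all lost without both control replicates 2 and 3.

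**Figure D4:**
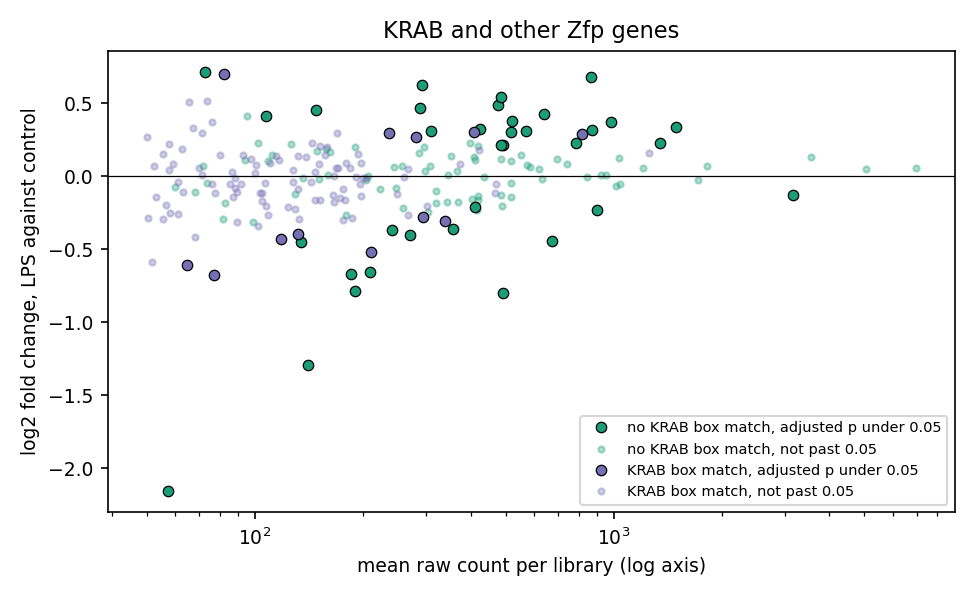
Log2 fold change of LPS against control over the mean raw count per library, on a log axis, for the Zfp genes with and without a KRAB box match, with large outlined points for those at an edgeR adjusted p under 0.05. The 108 KRAB genes lie mostly at low counts, and 12 of them passed, against 35 of the 111 others.

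The number of C2H2 matches had a median of 10 and reached 36 in Zfp142. Among the 31 genes with 0 to 3 matches, 6 rose and 6 fell. Among the 74 with 4 to 9 the counts were 10 and 6, among the 71 with 10 to 14 they were 5 and 4, and among the 43 with 15 or more they were 5 and 5. The changed shares were 38.7%, 21.6%, 12.7% and 23.3% in that order, beside 34.3% of all genes tested. The genes with few fingers were better counted, with a median mean of 404 counts against 132 in those with 15 or more. Zfp142 itself rose from 26.8 ± 4.24 to 34.8 ± 2.14 CPM (edgeR adjusted p = 0.00989). The linker TGEKP between fingers was present in 101 of the KRAB genes and in 55 of the others.

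By position, 114 of the genes had another gene of the list within 200000 bases, and 8 of these rose and 10 fell. The 105 genes that stood apart gave 18 rises and 11 falls. The changed share was 15.8% of the former and 27.6% of the latter, both under the 34.3% of all genes tested. The former had a median mean count of 148 and the latter 297, and 80 of the 114 had a KRAB box match. The part of depth and of the KRAB box in the difference was not tested. Chromosome 7, where KRAB clusters are frequent, held 54 of the genes, 3 of them higher and 5 lower (14.8% changed). Chromosome 17 held 25, with 2 higher and 2 lower (16.0%). Chromosome 6 held 16, also with 2 higher and 2 lower, and chromosome 13 held 13, with Zfp759 lower and none higher at an edgeR adjusted p under 0.05, and 2 genes at an unadjusted p under 0.05.

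Of 7 genes with roles in RNA processing or at ribosomes, 6 were well counted, and of these Zfp622, a ribosome maturation factor, rose. That is 1 of 6, beside 18.7% of all genes tested that were higher. Zfp622 had 83.8, 73.5 and 77.3 CPM in the controls and 101, 99.3 and 95.96 CPM with LPS (1.26-fold, edgeR adjusted p = 0.000176). The others did not pass. Zfp106, an RNA-binding protein of motor neurons and muscle, had 383, 416 and 410 CPM in the controls and 393, 425 and 439 CPM with LPS. Zfp598, the ubiquitin ligase that senses collided ribosomes, had log2 fold change 0.05 with a 95% interval from -0.06 to 0.16. Zfp326 and Zfp638, with roles in splicing and silencing, had log2 fold changes of -0.02 and -0.03, and the splicing factor Zfp830 had 0.23 (edgeR adjusted p = 0.0761, and 0.0452 without LPS replicate 3).

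Among the 3 genes for ubiquitin and SUMO ligases, Zfp451, a SUMO ligase, rose (1 of 3, beside 18.7% of all genes tested). It had 41.9, 49.7 and 46.3 CPM in the controls and 54.6, 53.6 and 63.1 CPM with LPS, 1.24-fold higher with an edgeR adjusted p of 0.00499. Zfp91, a ubiquitin ligase that acts on the NF-κB-inducing kinase, was among the highest of all Zfp genes. Its controls were 291, 290 and 296 CPM and its LPS libraries 298, 305 and 305 CPM. Although every LPS library was above every control, the log2 fold change of Zfp91 was 0.05, with a 95% interval from -0.03 to 0.13 and an edgeR adjusted p of 0.361. Zfp207 (BuGZ), which loads Bub3 on kinetochores in mitosis, had 192, 204 and 204 CPM in the controls and 239, 213 and 205 CPM with LPS (edgeR adjusted p = 0.0902, 0.0391 with the length and GC trend removed and 0.0417 without LPS replicate 3).

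Of 7 promoter-bound activators and repressors, 3 rose and 1 fell, beside 18.7% higher and 15.7% lower over all genes tested. Zfp281, which works with the NuRD complex in stem cells, rose from 47.9, 54.8 and 49.5 CPM in the controls to 63.00, 67.7 and 66.01 CPM with LPS (1.29-fold, edgeR adjusted p = 0.000254). Zfp263 was at 27.4 ± 0.548 CPM and 33.7 ± 3.81 CPM, and Zfp64 at 42.9 ± 1.67 CPM and 50.2 ± 1.87 CPM. Their edgeR adjusted p-values were 0.0127 and 0.00893. The call for Zfp263 was lost without LPS replicate 3 or control replicate 3, at adjusted p-values of 0.0707 and 0.0586. Zfp148 (ZBP-89), a factor of GC-rich promoters, fell from 56.9 ± 2.14 to 48.4 ± 3.9 CPM (edgeR adjusted p = 0.0121, and 0.0678 without LPS replicate 3). Zfp131, Zfp143 and Zfp384 did not pass, with log2 fold changes of 0.0047, -0.10 and 0.0095.

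Among 7 well counted chromatin co-regulators of a list of 9, Zfp462 and Zfp644 rose (28.6%), beside 18.7% of all genes tested that were higher. Zfp644, like Zfp462, recruits G9a and GLP. It had 26.7, 32.9 and 31.04 CPM in the controls and 40.3, 36.4 and 35.5 CPM with LPS (1.24-fold, edgeR adjusted p = 0.0118). Its call was lost without LPS replicate 1 or control replicate 1, at adjusted p-values of 0.0582 and 0.0545. Zfp592 and Zfp687, which form a complex with Zmynd8, had log2 fold changes of 0.05 and -0.22, and Zfp217, a partner of CtBP and Lsd1, had 0.15. Zfp219 and Zfp516 had -0.23 and 0.41, and none of these 5 passed. Zfp219 had LPS libraries of 19.97, 28.5 and 18.9 CPM, with LPS replicate 2 above all controls, and without that library the edgeR adjusted p was 0.00301. Zfp687 passed without LPS replicate 3 (adjusted p = 0.0234), and Zfp516 without control replicate 3 (0.0485).

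Of 6 known silencers of retroelements and imprinted genes, 4 were well counted, of which 1 rose (beside the same 18.7%), and Zfp57 and Zfp708 had no counts. Zfp568, which silences a placental promoter of Igf2, rose from 43.1, 44.4 and 42.9 CPM in the controls to 49.1, 55.1 and 54.9 CPM with LPS (1.22-fold, edgeR adjusted p = 0.00235). The groups of Zfp568 were clearly apart. Zfp445, an imprint protector, had 69.96 ± 0.335 CPM in the controls and 77.9 ± 6.52 CPM with LPS, with an edgeR adjusted p of 0.0553 (it passed in 5 of 16 alternative fits, at adjusted p-values from 0.022 to 0.0448). Zfp809, which silences murine leukaemia virus, had a log2 fold change of 0.06 with a 95% interval from -0.21 to 0.33. Zfp932 had 0.08 with an interval from -0.36 to 0.52. It shared 32.6% of its 75-base words with the predicted genes Gm15446 and Gm17655, and its value is uncertain for that reason.

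The KRAB genes act through shared co-repressors, and 15 of these were tested. Of these, 3 rose and 4 fell, 46.7% in all, close to the 47.0% of protein-coding genes with 800 counts or more that changed. Trim28 itself fell, from 386.2 ± 13.9 to 353.9 ± 4.4 CPM (edgeR log2 fold change -0.13 ± 0.040 SE, adjusted p = 0.0261). Of the 4 falls it had the highest adjusted p. Only 3 co-repressors fell without LPS replicate 2, without control replicate 3, or with the length and GC trend removed. The rises numbered 2 without control replicate 3 and 4 with that trend removed. The heterochromatin proteins Cbx3 and Cbx5 fell by 0.34 and 0.43 on the log2 scale, and Uhrf1, which guides DNA methylation in dividing cells, fell by 0.50. Cbx5 went from 287.8 ± 12.4 to 213.4 ± 7.39 CPM, and Uhrf1 from 243.9 ± 4.71 to 172.7 ± 7.12 CPM. Morc3, Morc2a and Atf7ip rose, with log2 fold changes of 0.46, 0.19 and 0.24. The other 8, among them Setdb1 (0.04), Dnmt1 (0.0048) and Chd4 (-0.07), did not pass. The co-repressors had a median mean count of 1468, far above that of the KRAB genes.

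Levels, per kb of gene length, spanned a wide range and were a consequence in part of the choice by mean count. The highest were Zfp106 at 39.4 CPM per kb, Zfp706 at 37.4, Zfp207 at 31.4, Zfp91 at 29.6, Zfp598 at 21.7 and Zfp710 at 15.5. The lowest were Zfp846 at 0.289, Zfp950 at 0.319 and Zfp606 at 0.4. The median was 2.36 CPM per kb over the 219 genes, 1.49 in the KRAB genes and 4.04 in the others. Zfp706, a small protein that holds stem cells back from self-renewal, had 200, 192 and 192 CPM in the controls and 183, 179 and 172 CPM with LPS. It fell by 0.13 on the log2 scale (edgeR adjusted p = 0.0355), and this small change lost its call in 4 of the 6 fits that left out 1 library, at adjusted p-values from 0.0576 without control replicate 1 to 0.141 without LPS replicate 3. The others were without LPS replicate 2 (0.0751) and without control replicate 3 (0.07), and the call was lost too with the length and GC trend removed (0.0648).

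**Figure D5:**
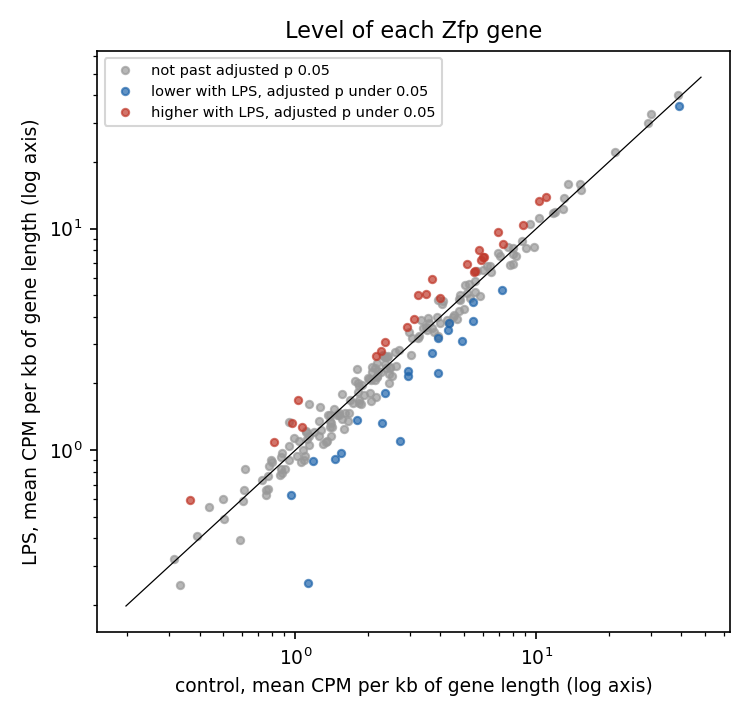
Mean level of each Zfp gene in the LPS libraries over that in the control libraries, in CPM per kb of gene length on log axes, with a line of equal levels and colour for the edgeR call. Most genes lie along the line from under 1 to nearly 40 CPM per kb, and Zfp395 stands farthest below it.

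Summed over the list, Zfp genes took 0.488% to 0.502% of the counts in the control libraries and 0.467% to 0.482% in the LPS libraries. The raw shares did not overlap. On the TMM scale, which centres the bulk of genes, the sums were 4729 to 4855 CPM in the controls and 4841 to 4994 CPM with LPS, and they overlapped.

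Promoter windows of RefSeq on GRCm38.p6, 250 bases before to 50 bases after each start, were at hand for 183 of the 219 genes, with 228 windows. They are shown for a KRAB gene that rose, a KRAB gene that fell and a gene without the box that rose, to set the motifs described next in their sequence. The capitals mark matches, ETS and kappa B in Zfp945, ETS and CCAAT in Zfp759, SP and CCAAT in Zfp275, on either strand. The window of Zfp945 is chr17:22867085-22867384 (minus strand), that of Zfp759 is chr13:67127978-67128277 (plus strand) and that of Zfp275 is chrX:73342370-73342669 (plus strand). The windows of Zfp945 and Zfp275 include the start of the gene in the deposited table. That of Zfp759 lies inside the counted gene, downstream of its start at 67121660.
Zfp945: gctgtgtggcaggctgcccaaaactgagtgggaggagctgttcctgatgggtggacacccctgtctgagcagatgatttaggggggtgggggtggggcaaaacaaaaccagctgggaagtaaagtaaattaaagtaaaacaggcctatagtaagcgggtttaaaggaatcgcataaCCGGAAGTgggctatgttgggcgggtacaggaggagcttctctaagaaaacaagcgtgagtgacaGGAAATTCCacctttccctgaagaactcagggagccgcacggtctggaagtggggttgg
Zfp759: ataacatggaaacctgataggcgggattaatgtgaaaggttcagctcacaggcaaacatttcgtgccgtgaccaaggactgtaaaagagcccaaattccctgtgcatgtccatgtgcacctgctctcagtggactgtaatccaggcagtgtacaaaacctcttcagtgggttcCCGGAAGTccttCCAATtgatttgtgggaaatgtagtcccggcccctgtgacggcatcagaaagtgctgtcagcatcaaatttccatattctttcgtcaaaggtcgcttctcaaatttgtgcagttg
Zfp275: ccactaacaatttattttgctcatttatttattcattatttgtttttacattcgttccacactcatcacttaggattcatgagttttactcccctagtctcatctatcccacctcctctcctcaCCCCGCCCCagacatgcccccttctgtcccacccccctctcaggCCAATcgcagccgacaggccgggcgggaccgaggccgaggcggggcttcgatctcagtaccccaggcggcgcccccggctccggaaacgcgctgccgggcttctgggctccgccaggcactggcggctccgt
The ETS motif CCGGAAGT was in 12.7% of the windows of the KRAB genes and 12.7% of those of the others, against 3.89% of 32851 windows of all genes. CCAAT was in 55.5% of the KRAB windows, 39.0% of the others and 37.4% of all. The SP motif GGGGCGGGG was in 6 of 110 KRAB windows, 26 of 118 of the others and 11.4% of all, and the CRE TGACGTCA in 3.64%, 5.93% and 1.79%. The NRF1 motif GCGCATGCG was in 1.82%, 5.93% and 1.75%, and the YY1 motif AAGATGGCG in 4.55%, 2.54% and 1.40%. None of these motifs holds another of them. Of the motifs tied to LPS signals, the interferon response core TTCNNTTTC was in 9.09%, 1.69% and 8.56%. The kappa B form GGGACTTTC was in 0 of the 228 windows and 0.353% of all. The form GGAAATTCC was in 2 of the 228 (0.877%), both of KRAB genes with Zfp945 among them, and in 0.317% of all. The windows held a median of 17 CpG, 12 in the KRAB genes and 21.5 in the others, against 7 over all genes. A match is a description of letters in these windows, and no test was run on it.

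As a last comparison, 92 well counted genes that the authors' table puts in the zf-C2H2 family under other names gave 12 higher and 11 lower, with a median log2 fold change of -0.02. The 189 Zfp genes that the table puts in that family gave 18 higher and 17 lower. The changed shares were 23 of 92 genes and 18.5%, both under the 34.3% of all genes tested.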

How the data were processed

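RNA-seq of N9 microglia gave 6 libraries, grouped by the labels into control and LPS. The authors deposited whole-number read counts per gene, made with featureCounts 1.5.0-p3 on mm10 according to the submitters' processing notes. The aligner, strand setting and annotation release are not given in the sources used here. A second deposited table holds the authors' own comparison (fold changes and p-values), with 18 columns of values per sample and 2 of group means, none of which were used.

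The counts were analysed with edgeR 4.0.16 under R 4.3.3, with TMM scaling, filterByExpr, the quasi-likelihood test and a prior count of 0.125. P-values were adjusted by the Benjamini-Hochberg method over the 12296 genes tested. The standard error is the log2 fold change divided by the square root of F. The study's methods used DESeq2, and DESeq2 1.42.0 was an alternative. Other alternatives were RLE scaling, other count filters, a length and GC correction, a replicate block and leaving out each library. An exact permutation test of 3 against 3 libraries cannot go below p = 0.1. On simulated data edgeR recovered 100 of 100 genes changed by 1 on the log2 scale and 88 of 100 changed by 0.5, with 10 false calls over 12299 genes, and DESeq2 recovered 99 and 76, with 8 false calls over 21252 genes. As the reads carry no molecular identifiers, 1 molecule may stand behind several counts.

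KRAB and C2H2 matches used the translated coding sequences of GENCODE M21, read with Biopython 1.88. A C2H2 match is a pair of cysteines with 2 to 4 residues between them, 12 further residues, and a pair of histidines with 3 to 5 between them. Figures used matplotlib 3.10.9. Genes named by rule are the 10 largest rises and falls among calls whose libraries do not overlap. Also named by rule are the 6 highest and 3 lowest levels per length and the 3 genes on either side of the count limit. So are genes past the study's thresholds and genes of the role lists. Outside these rules, Zfp704 and Zfp609 were named as relatives, Zfp668 and Zfp646 for their overlap and Zfp142 for its number of fingers. The genes near the KRAB limit and the called KRAB genes were named too. Genes and lists were chosen with earlier results of these data known.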

Additional observations from a re-analysis of the deposited data

How the results depend on the processing

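No gene the text names changed the sign of a call under the settings tried. Of the 47 calls, 26 held in all 6 fits that left out 1 library, and 20 held in all 16 alternative fits. DESeq2 called 34, all among the 47 and in the same direction, with 2 KRAB genes higher and 3 lower. Leaving out 1 library gave 18 to 24 Zfp genes higher and 15 to 20 lower, with 1 past the study's thresholds each time and a median log2 fold change from -0.0017 to 0.0188. For the KRAB genes it gave 2 to 4 higher, 4 to 7 lower and a median from -0.053 to -0.0010, and for the others 16 to 21 higher, 11 to 13 lower and a median from 0.0187 to 0.0617. With both control replicates 2 and 3 left out, an alternative chosen after seeing the data in which the lone control is assumed to vary like the other group, 8 Zfp genes were lower, 1 of them KRAB and 7 not. Calls over all genes fell to 2832. The medians were then 0.0325 over all and 0.0035 over the KRAB genes. Among the genes named by rule, Zfp759, Zfp287, Zfp64, Zfp148, Zfp263, Zfp580, Zfp597, Zfp667 and Zfp706 lost their calls in that fit. Of those, Zfp580, Zfp597 and Zfp667 also lost them with DESeq2. Among the other genes named, Zfp704, Zfp746, Zfp446, Zfp668, Zfp971, Zfp994, Zfp715, Zfp317, Zfp52 and Zfp26 lost theirs without both control replicates. With DESeq2, Zfp971, Zfp994, Zfp317, Zfp777, Zfp52 and Zfp26 did. The cause was not tested. Raising the mean to 100 counts left 0 genes past the study's thresholds, since Zfp395 lies below that mean. Among the 121 genes without overlap or shared sequence, 16 were higher and 12 lower, beside 18.7% and 15.7% of all genes tested, and 0 were past the thresholds, since Zfp395 overlaps an uncounted gene. In that smaller list 2 KRAB genes were higher, 6 others lower, and the median of the others was 0.116. RLE scaling gave 24 higher and 23 lower, and the length and GC correction 30 and 17. Same-numbered libraries correlated at 0.142, 0.0667 and -0.00789, and differently numbered ones at -0.158 to 0.0978. With 3 libraries per group, these values cannot settle whether the numbers pair the libraries. The replicate block gave 27 higher and 19 lower, 44 of them calls of the fit without it. The median standard error was 0.193 at 50 to 100 counts, where 5 of 51 Zfp genes and 121 of 617 protein-coding genes were called.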
